A study of Mus musculus with 9 samples.

Results

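The genes described here are 41 lysosomal genes of mouse quadriceps muscle: soluble hydrolases and their activator proteins, membrane proteins of the lysosome, and receptors that sort enzymes to it. They were chosen by name, with earlier results of these data known, and all 41 were found among the 13116 genes of the deposited table. Proteases were meant to be left out, but Tpp1, which encodes a tripeptidyl peptidase, is among the names and was kept.

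The study measured polyadenylated RNA in quadriceps of mice that lack Gaa, the gene of acid alpha-glucosidase, and of wild-type mice. This enzyme digests glycogen inside lysosomes, and its deficiency is Pompe disease. All 9 mice were males, 18 months old when the muscle was taken, and each gave 1 library. KO_secGAA mice were Gaa knockouts that received the vector AAV8-sp7-delta8-hGAAco through the tail vein at 9 months of age, 9 months before sampling, and the series' title places the transgene's expression in the liver with a secretable enzyme. KO_PBS mice were Gaa knockouts injected with PBS, and WT_PBS mice were wild-type animals injected with PBS, with 3 mice in each group. No group combined wild-type mice with the vector, or knockouts with an empty vector, so an effect of the vector itself and one of the enzyme cannot be told apart. Litters and cages are not given in the labels, and the p-values measure only the spread between these mice.

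Lysosomes digest glycolipids, glycosaminoglycans, glycoproteins, lipids and nucleic acids with a large set of acid hydrolases, many of which are needed in sequence on the same substrate. Most soluble enzymes are tagged with mannose 6-phosphate in the Golgi and carried by mannose 6-phosphate receptors, while heavily glycosylated membrane proteins line the organelle and move its products out. In Pompe disease glycogen fills the lysosomes of muscle fibres, and many lysosomal genes share a promoter element, built around an E-box, that the transcription factor TFEB binds.

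Reads in the table's genes numbered 10495715 to 14406655 per library in KO_secGAA, 9299156 to 14355201 in KO_PBS and 15477523 to 15957106 in WT_PBS. A single read was worth 0.0652 to 0.0922 normalized counts, the unit of all levels below. Gaa itself had 15.07, 15.6 and 16.61 normalized counts in KO_secGAA, 17.78, 14.46 and 14.02 in KO_PBS and 296, 128.6 and 264.1 in WT_PBS, so every knockout library was below every wild-type one. These are counts of the mouse gene's RNA. They measure neither the hGAA transgene named in the vector nor the enzyme protein in the muscle. The 12 muscle fibre markers held 14.44 to 15.06% of the reads in KO_secGAA, 13.67 to 14.78% in KO_PBS and 14.62 to 17.09% in WT_PBS. In whole muscle, fewer cells of a type and less RNA per cell cannot be told apart.

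The first comparison, KO_PBS against WT_PBS, shows the genes altered where Gaa was missing. Of the 41 members, 10 rose (24.4%; 10.9% of the 13089 genes tested rose) and 0 fell (11.0% of genes tested fell). The risen genes were Hexa, Galc, Galns, Dnase2a, Lamp1, Lamp2, Cd63, Scarb2, Ctns and Grn, and 5 of them encode lysosomal membrane proteins. Rises ran from 1.29-fold for Scarb2 to 2.73-fold for Hexa. The median log2 fold change was 0.24 over the 41 members and 0.01 over all genes tested. At an unadjusted p under 0.05 by limma, 17 members were higher and 2 lower, beside 2354 and 2275 of the 13089 genes tested. No member fell by edgeR, DESeq2 or limma voom on the recovered reads. The libraries of the groups did not overlap for 18 members that were higher, where 20.7% of all genes were so placed, and for 2 that were lower, where 19.0% were.

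Of the 10 rises, 7 held without any 1 of the 9 libraries. Those of Ctns and Galc were lost without WT_PBS 2, WT_PBS 3, KO_PBS 1 or KO_PBS 3, and that of Galns without any 1 of the 6 libraries compared, with limma adjusted p of at most 0.0867. Without WT_PBS 2, WT_PBS 3 or KO_PBS 3 the count was 7. Over all genes, 1430 higher and 1437 lower became 909 and 835 without WT_PBS 3 and 937 and 907 without KO_PBS 2. The scaling also bore on the count. Without the authors' scaling factors the median of all genes moved to 0.30, and 22 members rose, where 34.1% of all genes rose. Of all calls, 89.6% were then rises, against 49.9% as deposited. Smpd1, Idua, Hgsnat, Fuca1, Aga, Neu1, Mcoln1 and Cln3, which had small negative values as deposited, turned positive without those factors.

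**Figure D1:**
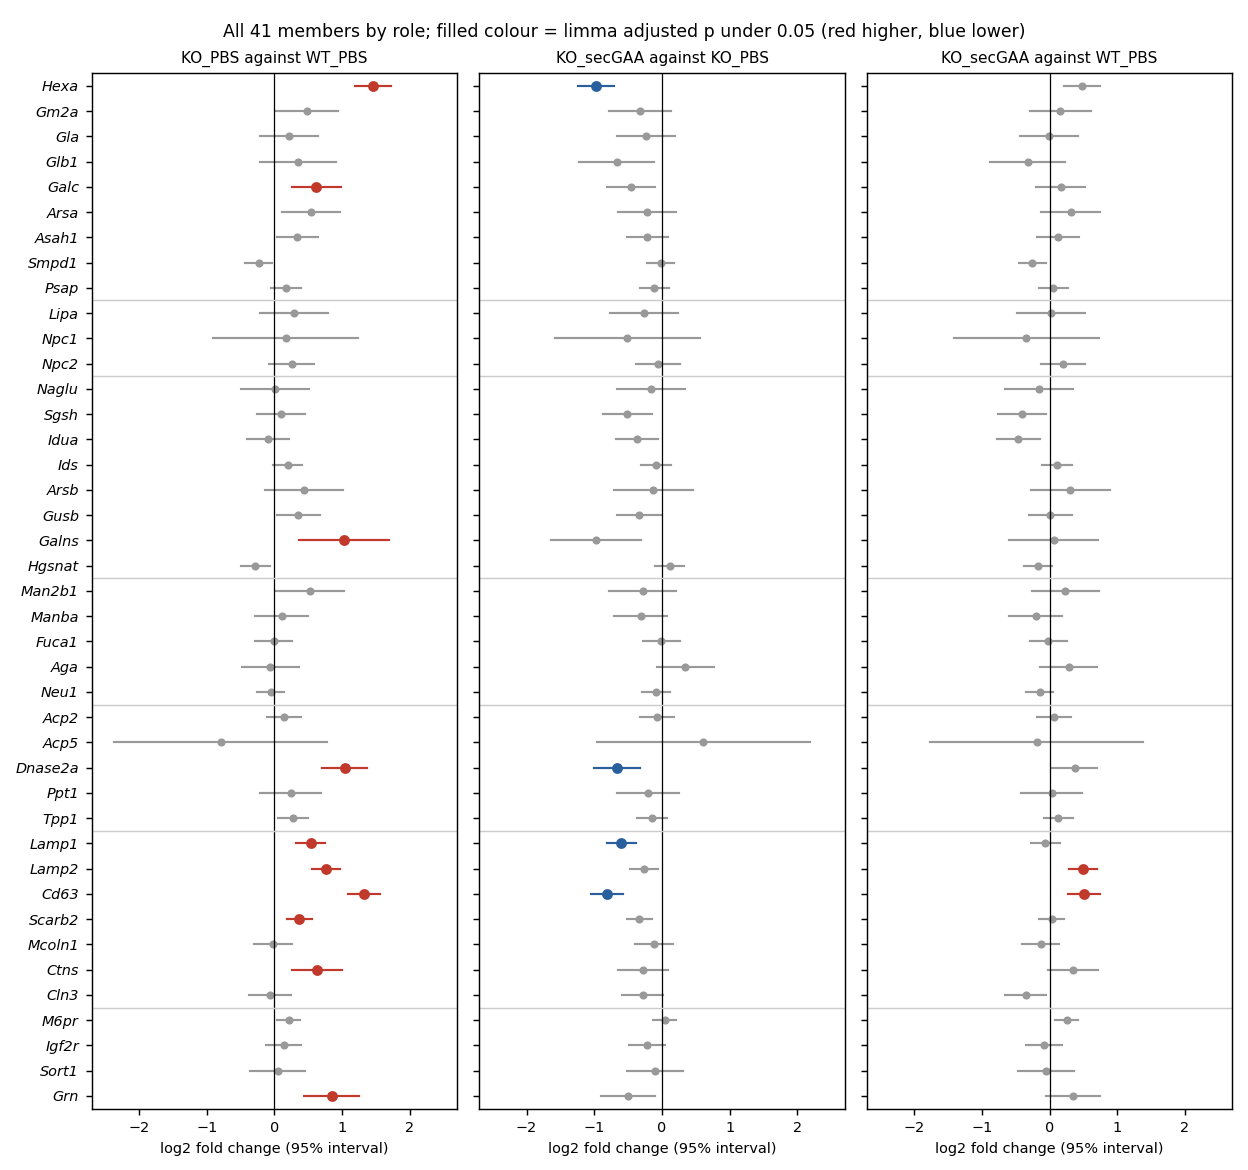
Log2 fold changes (horizontal axis, limma on log2 of value plus 0.5) with 95% intervals of the 41 members, ordered by role, in 3 panels: KO_PBS over WT_PBS on the left, KO_secGAA over KO_PBS in the middle and KO_secGAA over WT_PBS on the right. Large red points rose and large blue points fell at an adjusted p under 0.05; there are 10 red points on the left, 4 blue ones in the middle and 2 red ones on the right.

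KO_secGAA against KO_PBS asked what the vector changed in knockout muscle. Hexa, Dnase2a, Lamp1 and Cd63 fell, 4 of 41 members (9.76%; 2.31% of genes tested fell), and 0 rose (1.37% of genes tested rose). The falls were to 0.509 of the KO_PBS level for Hexa, 0.57 for Cd63, 0.63 for Dnase2a and 0.659 for Lamp1. The median log2 fold change was -0.23 over the members and 0.00 over all genes tested. By limma's unadjusted p under 0.05, 13 members were lower and 0 higher, beside 1326 and 1204 of the 13089 genes tested. None of the members rose by edgeR, DESeq2 or voom. The libraries did not overlap for 15 members that were lower, where 12.3% of all genes were so placed, and for 0 that were higher, where 11.7% were. The comparison shares the KO_PBS mice with the one above, so the opposite signs of the same genes are not independent of each other. Hexa and Cd63 fell without any 1 of the 9 libraries. The fall of Lamp1 was lost without KO_secGAA 2 (limma adjusted p = 0.0544). That of Dnase2a was lost without any 1 library other than WT_PBS 1 (at most 0.133) and in a fit of the 2 groups alone (0.0805). Without KO_secGAA 2 the count was 2. Over all genes, 179 higher and 302 lower became 58 and 101 without KO_secGAA 2, and leaving out 1 library in turn gave 58 to 224 higher and 101 to 344 lower. Of all genes called, 37.2% were higher in KO_secGAA as deposited and 10.6% without the authors' scaling factors. Under that setting 7 of 41 members fell, beside 6.55% of all genes tested.

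KO_secGAA against WT_PBS asked what remained different from wild type after treatment. Lamp2 and Cd63 were higher, 2 of 41 members (4.88%; 1.83% of genes tested were higher), and 0 were lower (1.89% of genes tested were lower). The folds were 1.41 for Lamp2 and 1.43 for Cd63. The median log2 fold change was 0.03 over the members and 0.01 over all genes tested. By limma's unadjusted p under 0.05, 5 members were higher and 4 lower, beside 1443 and 1375 of the 13089 genes tested. None of the members was lower by edgeR, DESeq2 or voom. Groups did not overlap for 6 members that were higher (13.5% of all genes) and 4 that were lower (13.3%). Neither rise held throughout. That of Lamp2 was lost without WT_PBS 2, WT_PBS 3, KO_secGAA 1 or KO_secGAA 2 (limma adjusted p at most 0.0938). That of Cd63 was lost without WT_PBS 2, WT_PBS 3, KO_PBS 2, KO_secGAA 2 or KO_secGAA 3 (at most 0.121). Without WT_PBS 2, WT_PBS 3 or KO_secGAA 2, 0 members were higher, without KO_secGAA 1 only Cd63 was, and without KO_PBS 3 there were 3. Counts over all genes shrank as well: 239 higher and 248 lower became 117 and 92 without WT_PBS 2, 60 and 34 without WT_PBS 3, 103 and 78 without KO_secGAA 1, and 91 and 52 without KO_secGAA 2. Without KO_secGAA 3, Idua passed as lower. Of all genes called, 49.1% were higher in KO_secGAA as deposited and 86.2% without the authors' scaling factors. Under that setting 4 of 41 members were higher, beside 6.63% of all genes tested.

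Among the 7 genes grouped as membrane proteins, transporters and channel, 5 rose in KO_PBS against WT_PBS (71.4%, beside 10.9% of all genes tested). Npc1, Hgsnat and the receptors M6pr, Igf2r and Sort1, which are membrane proteins too, were grouped under other roles, and none of them rose. The share thus depends on the grouping. The summed level of the 7 was 852.8 to 936.8 normalized counts in KO_secGAA, 1261.6 to 1376.5 in KO_PBS and 807.6 to 840.3 in WT_PBS. Lamp1 and Lamp2 encode the abundant glycoproteins that coat the inner face of the lysosomal membrane, and Lamp2 also has a part in chaperone-mediated autophagy and autophagosome fusion. Lamp1 (chr8:13159161-13175338 on GRCm38) had 446, 450.1 and 498 normalized counts in KO_secGAA, 699, 773 and 648 in KO_PBS and 451, 516 and 489 in WT_PBS. Each KO_PBS mouse was above all mice of the other groups, which overlapped with each other. For KO_PBS over WT_PBS the log2 fold change was 0.54 (SE 0.10, limma adjusted p = 0.00373), in KO_secGAA against KO_PBS -0.60 (SE 0.10, 0.0107) and in KO_secGAA against WT_PBS -0.06 (95% interval -0.28 to 0.15, 0.751), the last turning to 0.10 without the authors' scaling factors. Grtp1, a gene on the other strand, shares 9.31% of Lamp1's exon bases and averaged 4.96 normalized counts, far below Lamp1.

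Lamp2 (chrX:38401357-38456454) did not follow that pattern. Its normalized counts were 102, 100.9 and 90.2 in KO_secGAA, 127, 106 and 121 in KO_PBS and 72.9, 65.9 and 68.9 in WT_PBS. The 3 groups did not overlap, with KO_secGAA between the others. Lamp2 rose in KO_PBS against WT_PBS (log2 fold change 0.76, SE 0.09, limma adjusted p = 0.000566) and in KO_secGAA against WT_PBS (0.49, SE 0.09, 0.022). The difference of KO_secGAA from KO_PBS was -0.27 (95% interval -0.48 to -0.06) and did not pass (0.154).

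Cd63, a tetraspanin of late endosomes, lysosomes and exosomes (chr10:128900989-128912822), had 171, 202 and 208 normalized counts in KO_secGAA, 352, 338 and 327 in KO_PBS and 153, 122 and 132 in WT_PBS. It was the only member to pass in all 3 comparisons: log2 fold change 1.32 for KO_PBS over WT_PBS (SE 0.11, limma adjusted p = 5.47e-05), -0.81 in KO_secGAA against KO_PBS (SE 0.11, 0.00497) and 0.51 in KO_secGAA against WT_PBS (SE 0.11, 0.0322). KO_secGAA mice lay between the others and overlapped with neither. Scarb2, the receptor LIMP-2 that carries glucocerebrosidase to lysosomes (chr5:92441314-92506833), had 92.8, 87.8 and 94.6 normalized counts in KO_secGAA, 115, 117 and 116 in KO_PBS and 80.6, 96.7 and 92.3 in WT_PBS. KO_PBS was higher than WT_PBS by 0.37 on the log2 scale (SE 0.08, limma adjusted p = 0.0122). KO_secGAA was below KO_PBS in every mouse, by -0.34 (SE 0.08), and this just missed the threshold (0.0579).

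Ctns, the cystine exporter cystinosin (chr11:73183596-73199042), had 5.58, 5.9 and 6.88 normalized counts in KO_secGAA, 8.84, 6.26 and 7.68 in KO_PBS and 5.31, 4.11 and 4.7 in WT_PBS. The KO_PBS mice were above the WT_PBS mice (log2 fold change 0.63, SE 0.17, limma adjusted p = 0.0229), and the KO_secGAA mice overlapped with KO_PBS. The other membrane members passed in no comparison. Mcoln1, the calcium-releasing channel TRPML1, averaged 30.0 ± 1.91 normalized counts in KO_secGAA, 32.7 ± 3.42 in KO_PBS and 33.2 ± 4.74 in WT_PBS (SD, n = 3 each). Cln3, a membrane protein mutated in juvenile Batten disease, averaged 6.42 ± 0.614 in KO_secGAA, 7.96 ± 0.948 in KO_PBS and 8.34 ± 0.715 in WT_PBS.

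**Figure D2:**
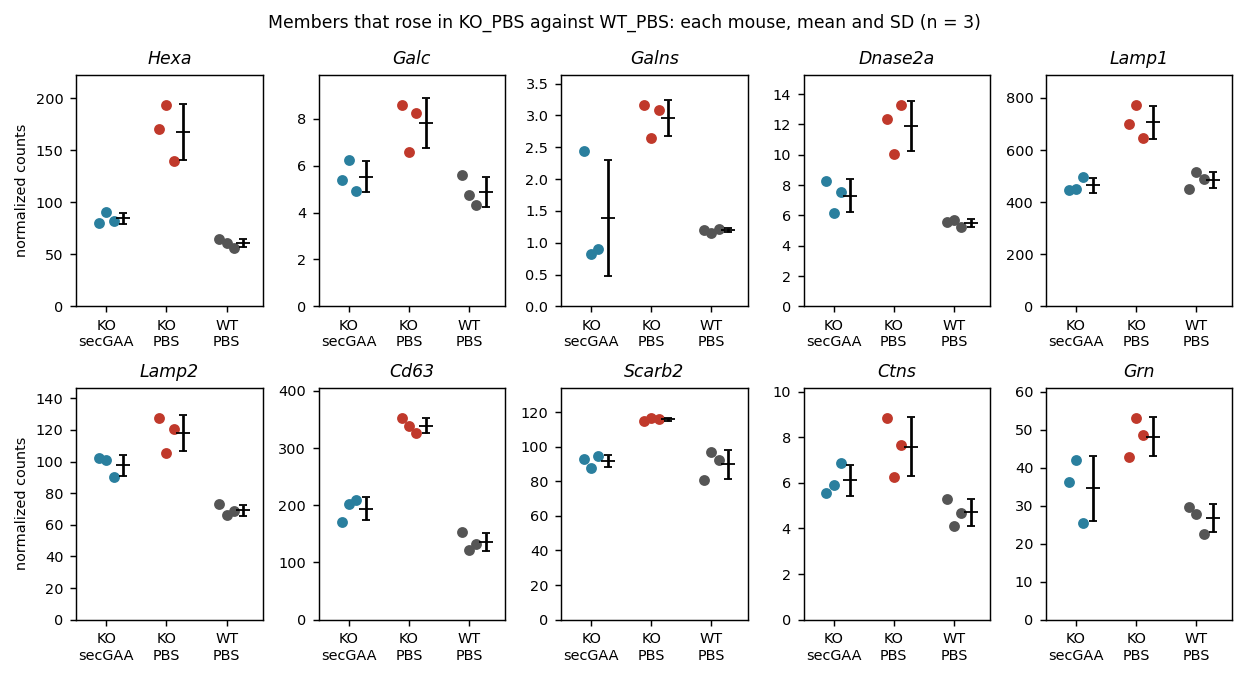
Normalized counts (vertical axes from 0) of the 10 members that rose in KO_PBS against WT_PBS, 1 point per mouse, with the mean and SD of 3 mice beside each group. In each panel the KO_PBS mice lie above the WT_PBS mice. The KO_secGAA mice lie below all KO_PBS mice for 9 of the 10, where 12.3% of all genes were so placed. They lie above all WT_PBS mice for 5, where 13.5% of all genes were. The 10 were chosen because these KO_PBS mice were high against these WT_PBS mice, which favours all 3 placements.

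The 9 sphingolipid hydrolases and activators break down gangliosides, sulfatide, ceramide and sphingomyelin, and 2 of them rose. Hexa encodes the alpha subunit of beta-hexosaminidase, which cleaves GM2 ganglioside and is mutated in Tay-Sachs disease (chr9:59539540-59565109). Its normalized counts were 80.7, 90.9 and 82.1 in KO_secGAA, 170.3, 194 and 139.5 in KO_PBS and 64.4, 60.8 and 56.6 in WT_PBS. The 3 groups did not overlap. Hexa had the highest fold of the members, a log2 change of 1.45 for KO_PBS over WT_PBS (SE 0.12, limma adjusted p = 6.03e-05). In KO_secGAA against KO_PBS the change was -0.97 (SE 0.12, 0.00416), and KO_secGAA was above WT_PBS by 0.48 without passing (SE 0.12, 0.0567). Tmem202, on the other strand, shares 12.8% of Hexa's exon bases and averaged 1.18 normalized counts. Galc, the galactosylceramidase lost in Krabbe disease (chr12:98202294-98259459), had 5.39, 6.25 and 4.94 normalized counts in KO_secGAA, 8.58, 6.58 and 8.23 in KO_PBS and 5.59, 4.74 and 4.33 in WT_PBS. All KO_PBS mice were highest, and the other groups overlapped. The rise was 0.62 (SE 0.16, limma adjusted p = 0.0213), and KO_secGAA differed from KO_PBS by -0.46 (SE 0.16, 0.154).

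The other sphingolipid genes passed in no comparison. Gm2a, the activator that presents GM2 to the enzyme, had 19.3, 17.7 and 15.6 normalized counts in KO_secGAA, 20.2, 22.9 and 23.0 in KO_PBS and 22.9, 12.3 and 13.4 in WT_PBS, so that 1 WT_PBS mouse stood at the KO_PBS level. Glb1, the beta-galactosidase that acts before hexosaminidase, averaged 1.84 ± 0.674 in KO_secGAA, 3.18 ± 0.831 in KO_PBS and 2.35 ± 0.0843 in WT_PBS, from 16 to 62 reads a library. Psap, the precursor of the saposin activators, averaged 1096 ± 69.9 in KO_secGAA, 1186 ± 79 in KO_PBS and 1055 ± 70 in WT_PBS. Its KO_PBS against WT_PBS log2 fold change was 0.17 (95% interval -0.05 to 0.39, limma adjusted p = 0.249). Smpd1, the acid sphingomyelinase, had 68.0, 63.2 and 75.1 in KO_secGAA, 72.2, 71.0 and 65.8 in KO_PBS and 76.6, 85.1 and 84.4 in WT_PBS. Both knockout groups lay below wild type for it, by -0.23 in KO_PBS (limma adjusted p = 0.0901) and -0.25 in KO_secGAA (0.136). Gla, Arsa and Asah1, which encode alpha-galactosidase, the sulfatide sulfatase and acid ceramidase, differed by 0.22, 0.54 and 0.34 in KO_PBS against WT_PBS, with limma adjusted p of 0.449, 0.0742 and 0.108.

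Of the 8 enzymes of glycosaminoglycan breakdown, Galns was the only one to rise. It encodes the N-acetylgalactosamine 6-sulfatase that acts on keratan and chondroitin sulfate (chr8:122578242-122611463). Its normalized counts were 2.44, 0.83 and 0.901 in KO_secGAA, 3.16, 2.64 and 3.08 in KO_PBS and 1.2, 1.16 and 1.22 in WT_PBS, from only 9 to 48 reads a library. KO_secGAA 1 stood near the KO_PBS mice, and the other KO_secGAA mice were below WT_PBS. For KO_PBS over WT_PBS the log2 change was 1.03 (SE 0.30, limma adjusted p = 0.0336). KO_secGAA differed from KO_PBS by -0.97 (SE 0.30, 0.113), and without KO_secGAA 1 this passed. The heparan sulfate acetyltransferase Hgsnat, a membrane enzyme, had 23.6, 25.8 and 26.7 normalized counts in KO_secGAA, 22.6, 25.2 and 22.5 in KO_PBS and 29.4, 26.5 and 30.0 in WT_PBS. All KO_PBS mice were below all WT_PBS mice, by -0.28 on the log2 scale, without passing (limma adjusted p = 0.0601).

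The remaining glycosaminoglycan enzymes passed in no comparison. Idua, the alpha-L-iduronidase, averaged 7.78 ± 1.35 normalized counts in KO_secGAA, 10.1 ± 0.823 in KO_PBS and 10.8 ± 0.816 in WT_PBS. Sgsh, the heparan sulfamidase, averaged 4.57 ± 0.332 in KO_secGAA, 6.8 ± 1.4 in KO_PBS and 6.25 ± 0.519 in WT_PBS. For both, every KO_secGAA mouse was below every mouse of the other 2 groups, and the KO_secGAA against WT_PBS log2 fold changes were -0.46 for Idua (limma adjusted p = 0.0981) and -0.41 for Sgsh (0.176). Naglu, Ids, Arsb and Gusb had KO_PBS against WT_PBS log2 fold changes of 0.00, 0.19, 0.43 and 0.35 with limma adjusted p of 0.993, 0.185, 0.267 and 0.107. Card14 on the other strand shares 21.6% of the exon bases of Sgsh and averaged 3.72 normalized counts, and Gm26527 shares 32.3% of those of Arsb and averaged 2.52. Their part in the values was not tested.

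None of the 5 hydrolases that trim the glycans of glycoproteins passed in a comparison. Man2b1, the lysosomal alpha-mannosidase, averaged 15.1 ± 4.4 normalized counts in KO_secGAA, 18.1 ± 2.26 in KO_PBS and 12.5 ± 2.58 in WT_PBS, and its KO_PBS against WT_PBS log2 fold change was 0.52 (95% interval 0.02 to 1.02, limma adjusted p = 0.125). Aga, which splits the bond between glycan and asparagine, averaged 12.6 ± 1.82 in KO_secGAA, 9.8 ± 1.29 in KO_PBS and 10.4 ± 2.74 in WT_PBS. Manba, Fuca1 and Neu1, the beta-mannosidase, alpha-fucosidase and sialidase, had KO_PBS against WT_PBS values of 0.11, -0.01 and -0.06. By limma's unadjusted p under 0.05, 1 of the 5 was higher and 0 lower in that comparison, beside 2354 and 2275 of the 13089 genes tested. On the recovered reads, edgeR, DESeq2 and voom called none of the 5 in any comparison.

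Of the acid phosphatases, nuclease, thioesterase and peptidase, Dnase2a rose. It encodes deoxyribonuclease II, which digests DNA in lysosomes (chr8:84908560-84922915). Its normalized counts were 8.25, 6.16 and 7.53 in KO_secGAA, 12.4, 10.05 and 13.3 in KO_PBS and 5.59, 5.73 and 5.22 in WT_PBS. The 3 groups did not overlap. The log2 fold changes were 1.04 for KO_PBS over WT_PBS (SE 0.15, limma adjusted p = 0.00132), -0.67 in KO_secGAA against KO_PBS (SE 0.15, 0.042) and 0.37 in KO_secGAA against WT_PBS (SE 0.15, 0.189). The antisense neighbour Mast1 covers 30.0% of its exon bases and is not among the genes of the deposited table, so no level can be given for it. Whether the reads were counted by strand is not given in the sources used here. Acp5, the tartrate-resistant phosphatase of osteoclasts and some macrophages, was the most variable member. It had 10.6, 15.2 and 1.55 normalized counts in KO_secGAA, 5.45, 4.22 and 3.08 in KO_PBS and 16.0, 6.99 and 3.74 in WT_PBS, and the groups overlapped. Ppt1, the palmitoyl-protein thioesterase, averaged 16.6 ± 4.49 in KO_secGAA, 18.9 ± 3.47 in KO_PBS and 15.9 ± 1.79 in WT_PBS. Acp2 and Tpp1 had KO_PBS against WT_PBS log2 fold changes of 0.14 and 0.28, with limma adjusted p of 0.432 and 0.0709.

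Among the 3 genes of cholesterol and neutral lipid handling, none passed by limma, edgeR, DESeq2 or voom, and none had an unadjusted limma p under 0.05. Lipa, the acid lipase, averaged 6.12 ± 1.84 normalized counts in KO_secGAA, 7.29 ± 1.23 in KO_PBS and 5.87 ± 0.907 in WT_PBS. Npc1, the membrane protein that exports cholesterol together with soluble Npc2, had 26.0, 31.0 and 46.3 in KO_secGAA, 53.3, 53.9 and 38.4 in KO_PBS and 61.3, 16.3 and 76.5 in WT_PBS. WT_PBS 2 was thus the lowest of all 9 and the other 2 the highest, and the interval of the KO_PBS against WT_PBS value (0.17) ran from -0.90 to 1.24. Npc2 averaged 53.5 ± 9.55 in KO_secGAA, 55.1 ± 2.58 in KO_PBS and 46.6 ± 7.63 in WT_PBS.

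In the group of sorting receptors and progranulin, only Grn rose in KO_PBS against WT_PBS, and no sorting receptor did. Grn encodes progranulin, which travels to lysosomes on sortilin or with prosaposin and is also abundant in macrophages (chr11:102430315-102437048). Its normalized counts were 36.1, 42.1 and 25.3 in KO_secGAA, 42.9, 53.0 and 48.5 in KO_PBS and 29.6, 27.8 and 22.6 in WT_PBS. All KO_PBS mice were highest, and KO_secGAA 3 fell within the WT_PBS range. The rise was 0.84 on the log2 scale (SE 0.18, limma adjusted p = 0.009), and KO_secGAA differed from KO_PBS by -0.50 (SE 0.18, 0.166). The 2 mannose 6-phosphate receptors passed in no comparison. M6pr, the cation-dependent receptor (chr6:122308720-122317680), had 34.9, 34.7 and 32.4 normalized counts in KO_secGAA, 32.9, 33.6 and 32.8 in KO_PBS and 27.8, 29.0 and 28.7 in WT_PBS. Both knockout groups were above all wild-type mice, by 0.25 in KO_secGAA (95% interval 0.08 to 0.42, limma adjusted p = 0.101) and 0.21 in KO_PBS (95% interval 0.04 to 0.38, 0.0749). Igf2r, the cation-independent receptor, averaged 56.5 ± 7.21 in KO_secGAA, 65.7 ± 5.91 in KO_PBS and 59.8 ± 5.52 in WT_PBS. Sort1, the receptor sortilin, averaged 69.6 ± 13.4 in KO_secGAA, 74.2 ± 8.79 in KO_PBS and 72.8 ± 16.5 in WT_PBS.

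Per kilobase of exon, Psap had the highest WT_PBS level of the members (384.5 normalized counts per kb), followed by Lamp1 (181.4), Cd63 (36.8), Hexa (30.4) and Smpd1 (24.6). The median member had 4.39 per kb, and Galc (0.328), Galns (0.45) and Arsb (0.453) were lowest. The risen members thus came from both ends of this order. Summed over the 41 members, the normalized counts were 2686.5, 2679 and 2850.2 in KO_secGAA, 3345.3, 3541.4 and 3394.7 in KO_PBS and 2742.6, 2498.3 and 2613.2 in WT_PBS. Psap and Lamp1, with WT_PBS means of 1055.1 and 485.35, weigh most in these sums. With all members weighted alike, the mean log2 difference from the WT_PBS mean was 0.305, 0.300 and 0.314 in KO_PBS. It was 0.121, 0.076 and -0.073 in KO_secGAA and 0.139, -0.107 and -0.032 in WT_PBS. As a share of each library's reads, which the scaling factors do not touch, the members made up 0.271 to 0.278% in KO_secGAA, 0.357 to 0.397% in KO_PBS and 0.225 to 0.251% in WT_PBS. The 3 groups did not overlap in this share, while KO_secGAA and WT_PBS overlapped in the normalized sums. Without the scaling factors the median log2 fold change of all genes was 0.305 in KO_PBS and 0.155 in KO_secGAA, each against WT_PBS. A shift of genes at large therefore enters this share. By group means, 22 members were highest in KO_PBS and lowest in WT_PBS with KO_secGAA between, 7 ran KO_PBS, WT_PBS, KO_secGAA from high to low, and 8 ran WT_PBS, KO_PBS, KO_secGAA. In the remaining 4, KO_secGAA was highest or KO_PBS lowest.

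The mice of a group differed by a median coefficient of variation of 11.1% in KO_secGAA, 10.5% in KO_PBS and 9.28% in WT_PBS. The highest mouse was more than 2 times the lowest for 3 members in KO_secGAA (Glb1, Galns and Acp5), for 0 in KO_PBS and for 2 in WT_PBS (Npc1 and Acp5). KO_secGAA 3 was the lowest of its group for 19 of the 41 members, but its Cd63 level was the highest of the 3. In the wild type, WT_PBS 1 was the highest for 26 members and WT_PBS 2 the lowest for 22.

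**Figure D3:**
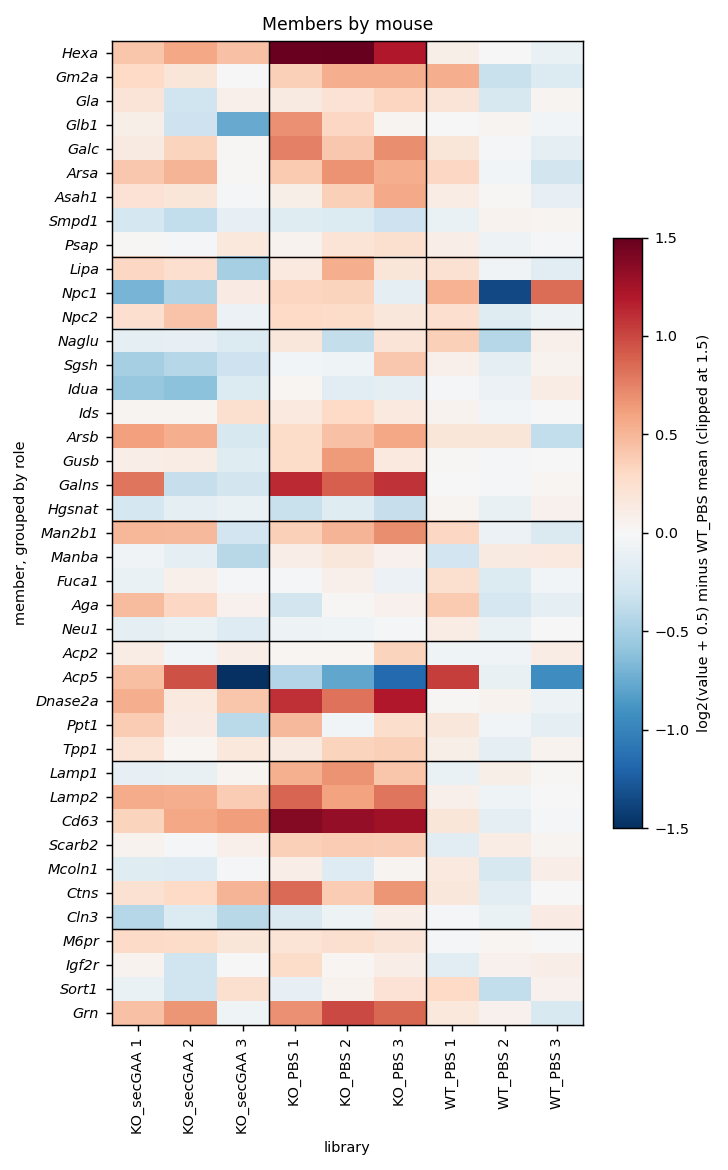
Colour shows log2 of value plus 0.5 minus the WT_PBS mean, clipped at 1.5, for each of the 41 members (rows, grouped by role) in each of the 9 libraries (columns). Hexa, Galns, Dnase2a, Cd63 and Grn are red in all KO_PBS mice; Npc1 and Acp5 differ widely between mice of the same group.

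The summed markers of macrophages and of antigen-presenting cells were higher in every KO_PBS mouse than in any WT_PBS mouse. For the counts below, 10.9% of all genes tested rose and 11.0% fell in KO_PBS against WT_PBS. In KO_secGAA 2.31% fell against KO_PBS and 1.83% were higher against WT_PBS. The 22 macrophage markers summed to 280.6, 350.4 and 172.3 normalized counts in KO_secGAA, 293.8, 425.9 and 365.8 in KO_PBS and 190.0, 199.5 and 123.4 in WT_PBS. Of them 6 rose in KO_PBS against WT_PBS (21 of the 22 log2 fold changes were positive, with a median of 0.89), 1 fell in KO_secGAA against KO_PBS (median -0.23) and 2 were higher in KO_secGAA against WT_PBS (median 0.64), and none was at 0 in any library. The fall and 1 of the higher calls after treatment were those of Cd68, lost without most single libraries (limma adjusted p at most 0.14 for KO_secGAA against KO_PBS and 0.159 for KO_secGAA against WT_PBS). Cd68, itself a lysosomal protein of macrophages, had 5.85, 8.35 and 5.44 in KO_secGAA, 12.2, 14.8 and 13.0 in KO_PBS and 4.42, 2.42 and 2.7 in WT_PBS. Others that rose, named after their values were seen, were Mpeg1, Lyz2 and Gpnmb, with log2 fold changes of 2.12, 1.53 and 1.32 in KO_PBS against WT_PBS (limma adjusted p = 0.00116, 0.00682 and 0.00134). The surface markers Adgre1 and Csf1r did not pass and had KO_PBS against WT_PBS log2 fold changes of 0.99 (limma adjusted p = 0.0871) and 0.39 (0.223). Of 6 tested markers of antigen-presenting cells (9 listed), 5 rose in KO_PBS against WT_PBS. The sums of the 6 were 188.3 to 340.1 in KO_secGAA, 249.0 to 481.5 in KO_PBS and 92.4 to 149.2 in WT_PBS. In KO_secGAA 3 the macrophage sum lay within the WT_PBS range, and the antigen-presenting sum lay above every WT_PBS mouse. Of the risen members, Grn, Lamp1, Galc and Scarb2 lay within their WT_PBS ranges in this mouse. Hexa, Dnase2a, Lamp2, Cd63 and Ctns lay above theirs, and Galns lay below. Of the other immune lists, none of 4 tested neutrophil and mast cell markers (8 listed) passed by limma in a comparison. None had an unadjusted limma p under 0.05 (median log2 fold change 0.04 in KO_PBS against WT_PBS). Of 11 listed T, NK or B cell markers, only Cd3e was among the genes of the deposited table. It fell in KO_PBS against WT_PBS (-1.51, limma adjusted p = 0.0434). The 4 satellite cell markers tested (5 listed) summed to 23.3 to 26.3 normalized counts in KO_secGAA, 33.7 to 37.3 in KO_PBS and 24.5 to 26.7 in WT_PBS. KO_PBS was above both other groups, and 1 of the 4 rose in KO_PBS against WT_PBS. The 9 endothelial markers summed to 189.3 to 220.0 in KO_secGAA, 136.9 to 173.8 in KO_PBS and 190.8 to 234.8 in WT_PBS, with KO_PBS below both, and 4 of the 9 fell in KO_PBS against WT_PBS. The fibroblast markers summed to 529.9 to 665.9 in KO_secGAA, 589.6 to 945.7 in KO_PBS and 544.6 to 657.2 in WT_PBS, and the muscle fibre markers to 142930 to 156370 in KO_secGAA, 119020 to 138430 in KO_PBS and 162660 to 186950 in WT_PBS. Of the 9 fibroblast markers, 1 rose in KO_PBS against WT_PBS (11.1%) and 2 fell in KO_secGAA against KO_PBS (22.2%). Of the 12 muscle fibre markers, 5 fell and 1 rose in KO_PBS against WT_PBS (41.7% and 8.33%), and 0 passed in the other comparisons. By mouse, the 6 adipocyte markers summed to 1423.5, 426.5 and 319.9 in WT_PBS. Their sums were 398.9, 437.7 and 216.9 in KO_PBS and 558.2, 946.9 and 332.65 in KO_secGAA. Mice of the same group thus differed widely. Of these markers 0 passed in KO_PBS against WT_PBS. In KO_secGAA against KO_PBS 1 of the 6 rose (16.7%, beside 1.37% of all genes). The part of any of these cell types in the members' values was not tested.

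Other lysosomal genes were taken from lists, also chosen with earlier results of these data known. Over all genes tested, as given above, 10.9% rose and 11.0% fell in KO_PBS against WT_PBS, and 1.37% rose and 2.31% fell in KO_secGAA against KO_PBS. Of 25 further hydrolases, 5 rose and 1 fell in KO_PBS against WT_PBS (20% and 4%), 3 fell and 0 rose in KO_secGAA against KO_PBS (12% fell), and 0 passed in KO_secGAA against WT_PBS. Pld3, an exonuclease of the phospholipase D family, had 24.9, 18.9 and 17.8 normalized counts in KO_secGAA, 29.4, 28.6 and 36.9 in KO_PBS and 16.6, 15.6 and 14.5 in WT_PBS (KO_PBS against WT_PBS log2 fold change 0.99, limma adjusted p = 0.00146). Plbd2 and Dpp7, a phospholipase B-like protein and a dipeptidyl peptidase, rose by 0.59 (0.00156) and 0.68 (0.00497). All 3 were lower in KO_secGAA than in KO_PBS, at -0.62 for Pld3 (0.0499), -0.51 for Plbd2 (0.0165) and -0.62 for Dpp7 (0.0334), but none of these falls held without each library. That of Plbd2 was lost without KO_PBS 2, KO_PBS 3, KO_secGAA 2 or KO_secGAA 3 (limma adjusted p at most 0.0678), that of Dpp7 without any 1 library other than WT_PBS 1 (at most 0.104) and that of Pld3 without any 1 other than KO_secGAA 1 (at most 0.156). At an unadjusted p under 0.05 by limma, 1 of the 25 was higher in KO_secGAA than in KO_PBS, beside 1204 of the 13089 genes tested. In KO_secGAA against WT_PBS, 1 was higher and 1 lower, beside 1443 and 1375 of all genes. The tools edgeR, DESeq2 and voom also called 0 in these directions. Without KO_PBS 2, KO_PBS 3, KO_secGAA 2 or KO_secGAA 3, 0 of the 25 fell in KO_secGAA against KO_PBS, and without WT_PBS 2, WT_PBS 3, KO_PBS 1 or KO_PBS 2 the rises in KO_PBS numbered 3.

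Of 33 further membrane proteins tested (34 listed), 10 rose and 2 fell in KO_PBS against WT_PBS (30.3% and 6.06%, beside 10.9% and 11.0% of all genes), with 3 rises left without WT_PBS 3 or KO_PBS 2. Litaf, which sorts membrane proteins to lysosomes, rose by 0.88 (limma adjusted p = 0.000907), and Slc11a1, a metal transporter of phagocytes, by 1.19 (0.00787). Laptm4b and the peptide transporter Abcb9 fell by 0.73 (0.00149) and 0.94 (0.00319). In KO_secGAA against KO_PBS, Laptm4b was higher by 0.50 (0.0367), and the endolysosomal cation channel Tpcn1 and the cobalamin transporter Abcd4 were lower, at -0.50 (0.0106) and -0.65 (0.036). The difference of Laptm4b held only without WT_PBS 1, WT_PBS 2 or KO_secGAA 1 (limma adjusted p otherwise at most 0.12), that of Abcd4 only without WT_PBS 1 or KO_PBS 2 (at most 0.11), and that of Tpcn1 without any 1 library. In KO_secGAA against WT_PBS, Abcb9 was lower by -0.83 (0.0244), lost without WT_PBS 2, WT_PBS 3, KO_secGAA 1 or KO_secGAA 2 (at most 0.1).

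Of 26 genes that make the mannose 6-phosphate tag, activate sulfatases or sort cargo, 6 rose and 2 fell in KO_PBS against WT_PBS (23.1% and 7.69%, beside 10.9% and 11.0% of all genes). Sorl1, a sorting receptor of the family of sortilin, had 38.3, 37.4 and 29.2 normalized counts in KO_secGAA, 19.5, 25.1 and 18.8 in KO_PBS and 60.6, 48.7 and 50.2 in WT_PBS, in the opposite direction to the risen members. Its log2 fold changes were -1.32 in KO_PBS against WT_PBS (limma adjusted p = 0.000345), 0.71 in KO_secGAA against KO_PBS (0.0335) and -0.60 in KO_secGAA against WT_PBS (0.055). Gga2, an adaptor that binds mannose 6-phosphate receptors, and Hgs, which sorts ubiquitinated cargo on endosomes, rose by 0.80 (0.000576) and 0.83 (0.00123), and Sumf2, a paralog of the sulfatase activator, fell by 0.73 (0.00325). In KO_secGAA against KO_PBS, Hgs and Gga2 were lower, at -0.71 (0.0124) and -0.46 (0.036). The call of Hgs held without any 1 library, while that of Gga2 held only without WT_PBS 1 or WT_PBS 3 (otherwise at most 0.109) and that of Sorl1 was lost without WT_PBS 3, KO_PBS 1, KO_PBS 3, KO_secGAA 1 or KO_secGAA 2 (at most 0.11). The count of rises in KO_PBS was 3 without WT_PBS 3. Ap1b1, an adaptor subunit, was lower in KO_secGAA than in WT_PBS by -0.32 (0.0495), lost without any 1 library other than KO_PBS 3 (at most 0.17).

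**Figure D4:**
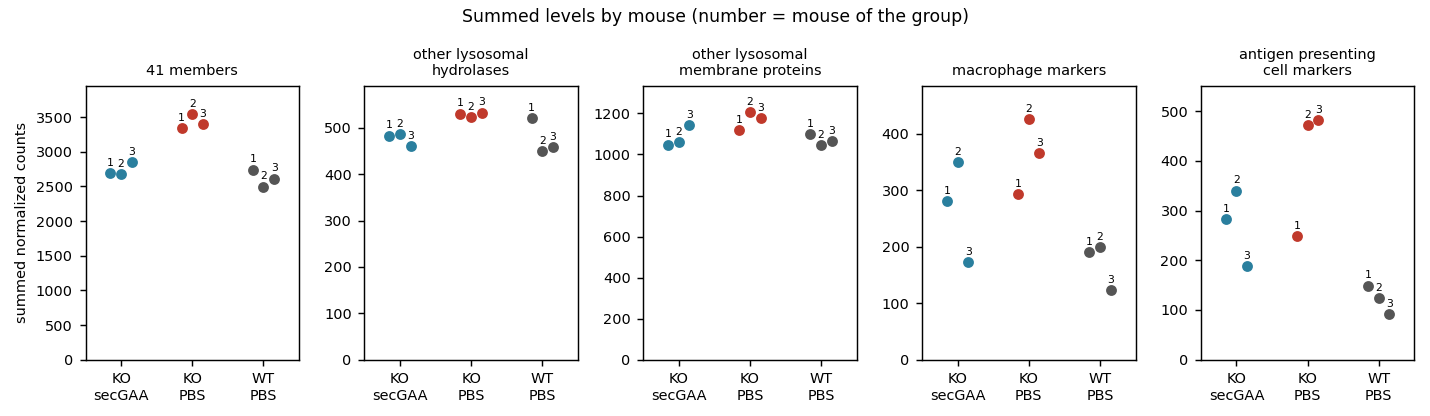
Summed normalized counts (vertical axes from 0) by mouse for the 41 members, the further lysosomal hydrolases and membrane proteins, and the markers of macrophages and antigen-presenting cells; the number beside a point is the mouse of its group. The member sums of KO_PBS (3345.3 to 3541.4) lie above both other groups, and the macrophage sum of KO_secGAA 3 lies among the WT_PBS mice. Psap and Lamp1 weigh most in the member sums.

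Promoter windows of RefSeq (build GRCm38.p6, 250 bases before to 50 after each start) were available for 34 of the 41 members, with 39 windows. The E-box CACGTG, which reads the same on both strands and forms the core of the element bound by TFEB, was searched for in each. It occurred in windows of 9 of the 34 members (26.5%), against 1167 of 9767 genes of the table with a window (11.9%) and 8.09% of all genes with one. The longer palindrome TCACGTGA, which contains the E-box, occurred in 4 of 34 (11.8%), against 2.19% of the table's genes and 1.12% of all. Of the 9 risen members with a window, 1 held the E-box, and of the 25 members with a window that did not pass, 8 did: Arsa, Cln3, Gla, Glb1, Igf2r, Mcoln1, Naglu and Sgsh. Stretches of 80 bases are printed for Lamp1, the risen member with 4 copies, for Igf2r and Gla, which hold 2 copies and did not pass, and for the risen Hexa and Lamp2, whose stretches hold none. They read 5′ to 3′ on the gene's strand with each CACGTG in capitals.
Lamp1 (chr8:13159081-13159160, plus strand): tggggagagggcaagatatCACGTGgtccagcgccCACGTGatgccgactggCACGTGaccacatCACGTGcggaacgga
Igf2r (chr17:12769707-12769786, minus strand): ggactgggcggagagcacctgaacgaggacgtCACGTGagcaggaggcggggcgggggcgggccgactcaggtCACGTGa
Gla (chrX:134601166-134601245, minus strand): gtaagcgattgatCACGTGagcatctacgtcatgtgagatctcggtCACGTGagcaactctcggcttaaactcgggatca
Hexa (chr9:59539460-59539539, plus strand): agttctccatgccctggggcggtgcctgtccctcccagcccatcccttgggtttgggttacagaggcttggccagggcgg
Lamp2 (chrX:38456461-38456540, minus strand): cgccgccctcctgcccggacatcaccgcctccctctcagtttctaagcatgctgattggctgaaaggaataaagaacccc
In the Lamp1 stretch the 4 copies start 61, 45, 28 and 15 bases before the start of transcription. A match describes these letters only, and a window without one says nothing of elements elsewhere.

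**Figure D5:**
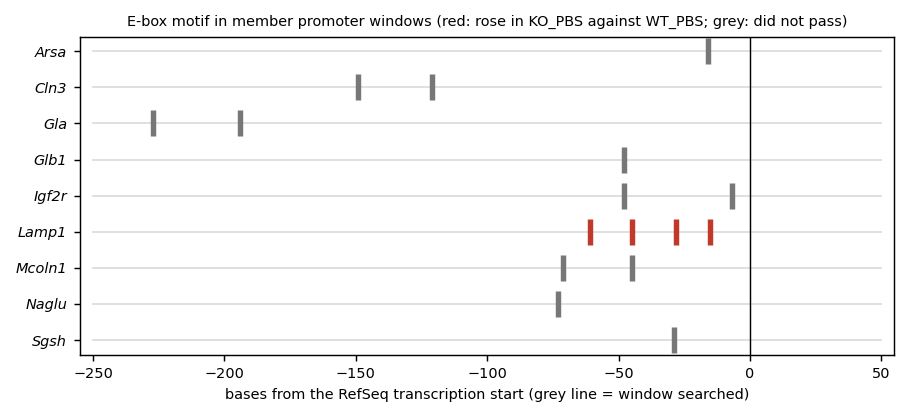
Position of each E-box (ticks) in bases from the RefSeq transcription start for the 9 members that hold at least 1 in their promoter window, grey lines marking the window searched. Lamp1 (red, risen in KO_PBS against WT_PBS) has 4 copies within 61 bases of the start; the 8 others (grey) did not pass in that comparison.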

How the data were processed

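Polyadenylated RNA of 9 quadriceps muscles, 1 library per mouse and 3 mice per group, was sequenced in single-end reads of 61 bp, per the labels' protocols. Of software, the submitters' processing notes list limma, edgeR, RSEM, CASAVA and cutadapt, with the build GRCm38; the role and version of each, and the strand setting of the counting, were not given in the sources used here. The deposited table gives 13116 genes in a normalized signal that the file's header calls normalized counts. In each column 100% of the 118044 values were whole reads plus 0.5 after division by a constant (relative tolerance 1e-06), and edgeR's TMM factors computed from those reads gave the deposited signal back within 9.2e-08.

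A test for raw counts had been planned for the case that the table held them. It holds normalized values, so limma 3.58.1 (R 4.3.3) was run on log2(value + 0.5) over the 9 libraries with 3 group means, trended empirical Bayes and 6 residual degrees of freedom. Fold changes on this scale understate those of low genes. A gene was tested where 3 or more libraries reached a value of 1, which kept 13089 genes and all 41 members and removed 27. Genes rose or fell at a Benjamini-Hochberg adjusted p under 0.05 over all genes tested, and every p in the text is limma's unless another tool is named. As alternatives, pseudocounts of 0.1 and 1, no filter, a filter at 5, values without the scaling factors, quantile normalization, a fit of the 2 groups compared, leaving out each library, and edgeR 4.0.16, DESeq2 1.42.0 and limma voom on the recovered reads were tried. On those reads edgeR called 1420 genes higher and 1421 lower in KO_PBS against WT_PBS, 166 and 279 in KO_secGAA against KO_PBS, and 254 and 249 in KO_secGAA against WT_PBS. DESeq2 called 1451 and 1579, 350 and 448, and 487 and 535 in the same comparisons, and voom 1384 and 1421, 145 and 286, and 164 and 208. The test was tested on simulated data with known changes. The simulation held as many rises as falls and no wider shift between groups, so it says nothing of the part of the scaling factors.

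Members that passed are given mouse by mouse and the others by mean ± SD (n = 3); Gm2a, Smpd1, Npc1, Acp5, Hgsnat and M6pr are also given mouse by mouse, chosen after their values were seen, as were Cd3e and the macrophage markers other than Cd68, Adgre1 and Csf1r. Of further lists, up to 4 passing genes per comparison are named by smallest p. The members and lists were chosen with earlier results of these data known. Exon overlaps and exon lengths came from GENCODE M21 (GRCm38).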

Additional observations from a re-analysis of the deposited data

How the results depend on the processing

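No paired analysis was possible because the labels give no replicate number that groups share; the numbers 1 to 3 only name mice. No member's direction reversed under any alternative among the 16 calls of members. Under the alternatives other than leaving out a library, 156 of their 159 values stayed past the threshold, the exceptions being Ctns under quantile normalization and Dnase2a and Cd63 in fits of 2 groups. With 1 library left out, 112 of 144 did. Of the 28 calls of other named genes, 258 of 280 values and, with 1 library left out, 176 of 252 stayed past the threshold. Ap1b1 was lost under 6 of 10 alternatives, the fall of Pld3 under 5 and Cd68 in KO_secGAA against WT_PBS under 3. Laptm4b and Sorl1 in KO_secGAA against KO_PBS were lost without the scaling factors and in fits of 2 groups, and Dpp7, Abcd4 and Abcb9 in fits of 2 groups. Counts over all genes with DESeq2 were 350 and 448 in KO_secGAA against KO_PBS, where limma gave 179 and 302, and 487 and 535 in KO_secGAA against WT_PBS, where limma gave 239 and 248. A filter at 5 removed 5 members and let Hgsnat pass as lower in KO_PBS against WT_PBS, a count of 1. Without the authors' scaling factors, 22 of 41 members rose in KO_PBS against WT_PBS, where 34.1% of all genes rose. In KO_secGAA against KO_PBS 7 fell, where 6.55% of all genes fell. In KO_secGAA against WT_PBS 4 were higher, where 6.63% of all genes were. Leaving out 1 library gave 7 to 11 rises in KO_PBS against WT_PBS, 2 to 5 falls in KO_secGAA against KO_PBS, and in KO_secGAA against WT_PBS 0 to 3 members higher and 0 to 1 lower. The cause of these changes was not tested, beyond fewer mice and fewer genes entering the fit. The KO_PBS and KO_secGAA libraries were shallower than those of WT_PBS, and Galns rested on only 9 to 48 reads a library (SE 0.297). The largest standard errors were those of Acp5 (0.705) and Npc1 (0.479), whose mice differed widely within groups.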
